A study of Mus musculus with 7 samples.

Results

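Pik3ca, Pik3r1, Akt1, Akt2, Tsc1, Tsc2, Mtor and Rictor, core genes of the PI3K, AKT and mTOR pathway, were followed in single-nucleus RNA sequencing of mouse small cell lung cancer (SCLC). The 8 genes were chosen by name, and each symbol matched 1 of the 56941 genes in the count matrices of all 4 animals. The tumors came from the lungs of 4 male mice. RP1 and RP2 carried Rb1 fl/fl and Trp53 fl/fl, and RPC1 and RPC2 carried in addition a Casp8 deletion, written Casp8-/- in the labels and described as conditional by the study. All 4 mice shared the Rb1 and Trp53 alleles and had inhaled an adenovirus with Cre under the CMV promoter (Ad5-CMV-Cre), which is not restricted to a cell type. The tumors were fresh-frozen at endpoint, and the ages of the animals were not used here. RP and RPC follow the labels of the animals. Setting RPC beside RP asks what differed in tumors that developed without caspase 8.

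PI3K is a lipid kinase made of a catalytic subunit, such as the one encoded by Pik3ca, and a regulatory subunit, such as the one encoded by Pik3r1, which stabilizes and restrains it. Its lipid product brings the AKT kinases to the membrane, and AKT inactivates the complex of TSC1 and TSC2. That complex switches off the small GTPase RHEB, which activates the mTOR kinase in its complex with raptor, while the mTOR complex that holds rictor phosphorylates AKT. Much of this signalling is carried by phosphorylation of the proteins, which transcript counts do not measure. The pathway controls growth, translation and survival and is frequently altered in lung cancers, SCLC included.

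After filtering, 8363 to 10853 nuclei per animal remained, and 7080 (RP1), 7313 (RP2), 9239 (RPC1) and 8765 (RPC2) of them fell into clusters called tumor-like because no list of markers of another cell type scored above 0.5 in them. The median depth of tumor-like nuclei was 2337.5 and 2265.0 transcripts in the RP animals and 3331.0 and 2827.0 in the RPC animals. Both RPC animals were therefore deeper. Rn18s-rs5, a ribosomal RNA, took 10% and 8.51% of the transcripts of the RP animals and 3.13% and 5.38% of those of the RPC animals, so that depth and this share moved with genotype, and their part in the differences below was not tested. No barcode was shared between animals. Casp8 was counted at 59.1 and 61.1 CPM (transcripts counted per 1e6) in the RP and at 89.0 and 66.0 CPM in the RPC animals. Casp8 had a log2 fold change of 0.37 with an adjusted p of 0.41. The position of the deleted part is not given in the sources used here, so this level does not check the labels.

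All 8 genes passed the filter on low counts in tumor-like nuclei. The summed counts of a gene and animal ranged from 1165 (Akt1 in RP1) to 10032 (Mtor in RP1). By mean CPM of the 4 animals, the genes lay between the 76.4 percentile (Akt1) and the 95.2 percentile (Mtor) of the 20181 genes tested. Divided by the length of the annotated exons, the mean level was 19.0 CPM per kb for Mtor, 14.5 for Pik3ca, 10.3 for Rictor, 8.12 for Tsc2, 6.79 for Akt2, 6.24 for Pik3r1, 5.92 for Tsc1 and 5.27 for Akt1. The order was not the same in every animal. Mtor had 35.8, 8.80, 14.68 and 16.9 CPM per exon kb in RP1, RP2, RPC1 and RPC2, against 14.6, 13.9, 14.82 and 14.65 for Pik3ca, so that its first place rested on RP1 and it lay below Pik3ca in RP2 and, by less, in RPC1. Tsc2 lay above Akt2 in RP1, with 9.28 against 7.16 CPM per exon kb, and below it in RP2, with 8.17 against 8.78. Nuclear RNA is rich in introns. Divided by the whole gene span, the level was highest for Tsc2 with 2.25 CPM per kb and lowest for Pik3r1 with 0.764, and the remaining 6 genes lay between 1.57 (Akt2) and 1.90 (Rictor). The plot of levels by animal shows how far the libraries of an animal lay apart compared with the animals.

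**Figure D1:**
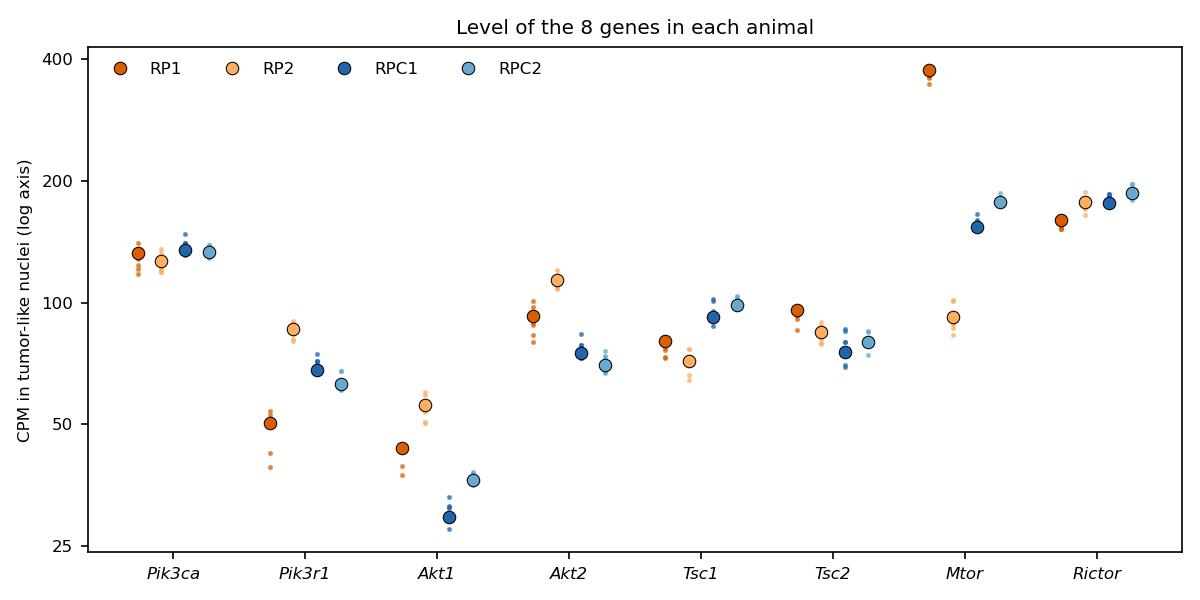
CPM (log axis) of the 8 genes in tumor-like nuclei, with large circles for the sum of an animal after TMM scaling and small points for its 7 sublibraries without TMM scaling. Akt1 and Akt2 lie lower in both RPC animals than in both RP animals, Tsc1 lies higher, and Mtor runs from 92.3 CPM in RP2 to 376 CPM in RP1.

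The catalytic subunit gene Pik3ca (GRCm39 chromosome 3, 32451820 to 32522635, plus strand) was almost constant. It was counted at 132.8 and 126.4 CPM in the RP animals (RP1, then RP2) and at 134.6 and 133.1 CPM in the RPC animals (RPC1, then RPC2), the order kept for all values below. There was no overlap between genotypes, but the gap between 132.8 and 133.1 CPM was smaller than the spread between the 7 sublibraries of RP1 alone, which ran from 117.5 to 140.2 CPM without TMM scaling. The log2 fold change was 0.05 ± 0.13 (SE, 2 against 2 animals), with an adjusted p of 0.88.

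Pik3r1 (chromosome 13, 101817071 to 101904725, minus strand), the regulatory subunit gene, varied more. The values were 50.4 and 86.2 CPM in the RP animals and 68.2 and 63.1 CPM in the RPC animals, so that both RPC animals lay between the RP animals. Its log2 fold change was -0.06 ± 0.28 (SE), with an adjusted p of 0.94, and it was -0.39 without RP1 and 0.39 without RP2. The genotypes overlapped, and the sign depended on which RP animal was left out.

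Akt1 (chromosome 12, 112620248 to 112645654, minus strand) and Akt2 (chromosome 7, 27284378 to 27340262, plus strand) encode AKT kinases. Akt1 was counted at 43.6 and 55.7 CPM in RP tumors and at 29.4 and 36.4 CPM in RPC tumors, which is a mean of 49.7 ± 8.55 in RP and of 32.9 ± 4.91 in RPC (SD, n = 2). Akt2 was counted at 92.8, 113.7, 74.98 and 70.1 CPM in the same order, which is 103.2 ± 14.8 in RP and 72.5 ± 3.47 in RPC (SD, n = 2). Both genes were lower in each RPC animal than in each RP animal, but not in each of the 2 or 3 first-round barcoding wells that held the nuclei of an animal. Without TMM scaling, the wells ran from 37.3 to 65.05 CPM in the RP animals and from 27.2 to 37.8 CPM in the RPC animals for Akt1, and from 79.5 to 133.6 against 68.5 to 81.5 CPM for Akt2, so that both genes overlapped between genotypes by well (4 RP and 5 RPC wells). The log2 fold change was -0.59 ± 0.21 (SE) for Akt1, with an unadjusted p of 0.033 and an adjusted p of 0.30 in edgeR, and -0.51 ± 0.16 (SE) for Akt2, with an unadjusted p of 0.024 and an adjusted p of 0.29. Neither passed the threshold over all genes. The sign was kept without any 1 of the animals, with ranges of -0.76 to -0.40 for Akt1 and -0.65 to -0.35 for Akt2.

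Tsc1 (chromosome 2, 28531061 to 28581179, plus strand) and Tsc2 (chromosome 17, 24814783 to 24852192, minus strand) encode partners of 1 complex and lay in opposite directions. Tsc1 was counted at 80.2 and 71.7 CPM in RP tumors and at 92.0 and 98.9 CPM in RPC tumors, higher in both RPC animals, and its wells did not overlap, with 68.2 to 80.2 CPM in RP and 92.2 to 99.8 CPM in RPC. Its log2 fold change was 0.33 ± 0.14 (SE), with an unadjusted p of 0.066 and an adjusted p of 0.35. Tsc2 was counted at 96.1, 84.6, 75.4 and 80.0 CPM in the same order, lower in both RPC animals, although the gap between RP2 and RPC2 was within the range of the sublibraries of RPC2, 74.3 to 85.0 CPM without TMM scaling. By well, Tsc2 overlapped widely, with 68.6 and 108.9 CPM in the 2 wells of RP1 and 56.5 and 106.4 CPM in those of RP2 against 68.5 to 89.2 CPM in the RPC wells. The log2 fold change of Tsc2 was -0.22 ± 0.14 (SE), with an adjusted p of 0.49 and a range of -0.30 to -0.12 when each animal was left out in turn.

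Rictor (chromosome 15, 6737860 to 6829882, plus strand), the defining subunit of the second mTOR complex, was counted at 159.7, 177.6, 175.8 and 186.1 CPM. The genotypes overlapped, and the log2 fold change was 0.10 ± 0.14 (SE), with an adjusted p of 0.74. Mtor (chromosome 4, 148533015 to 148642141, plus strand), the kinase of both complexes, was counted at 376 and 92.3 CPM in RP tumors and at 154 and 177 CPM in RPC tumors. RP1 lay 4.07-fold above RP2, with both RPC animals between them, and this was the widest range of the 8 genes, of which Akt1 followed with 1.89-fold. The log2 fold change was -0.50 ± 0.63 (SE), with an adjusted p of 0.72. This value was 0.85 without RP1 and -1.17 without RP2, so the mean difference rested on which RP animal was present.

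In all, 5 of the 8 genes did not overlap between the genotypes in tumor-like nuclei, 2 of them higher in RPC (Pik3ca and Tsc1) and 3 lower (Akt1, Akt2 and Tsc2). Of all 20181 genes, 50.3% did not overlap, with 24.7% higher and 25.6% lower in RPC, so this count was close to the background. An unadjusted p under 0.05 was reached by 2 of the 8 genes, against 15.1% of all genes. No member passed an adjusted p of 0.05 in edgeR, where 0 of 20181 genes (0.0%) were called and 3038 had an unadjusted p under 0.05, nor in DESeq2, which called 655 genes (3.91% of 16765 with an adjusted p). The median log2 fold change was -0.14 over the members and -0.01 over all genes.

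**Figure D2:**
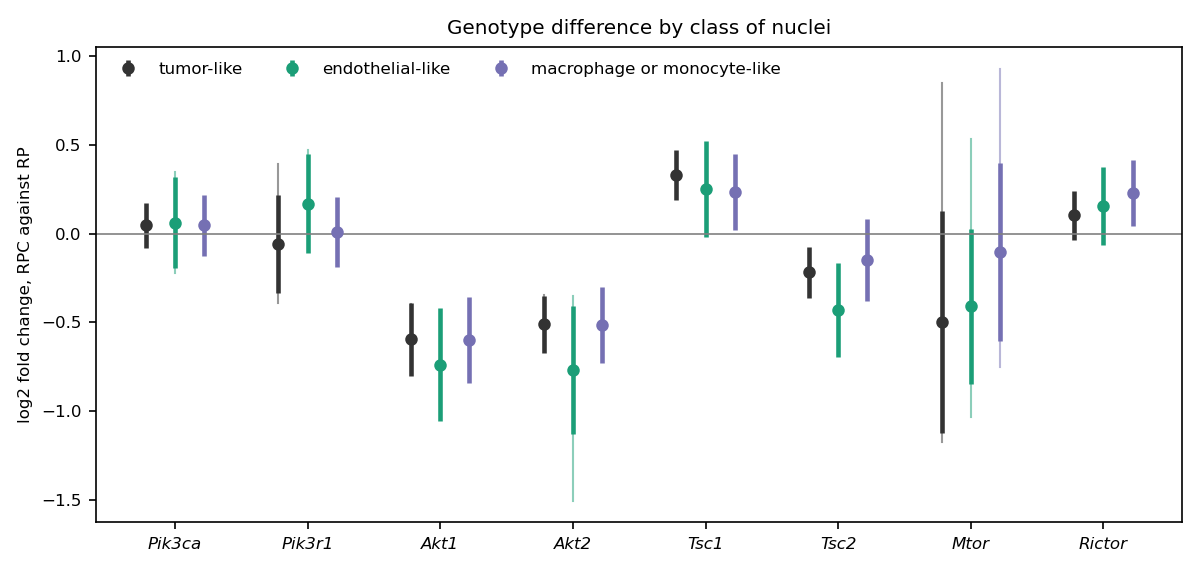
Log2 fold change of RPC against RP for the 8 genes in 3 classes of nuclei. Points are the edgeR estimates, thick bars their standard errors and thin lines the range when each animal was left out, with 2 animals per genotype. Akt1 and Akt2 are below 0 in all 3 classes, while the thin lines of Mtor cross 0 in each.

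The level of Mtor went along with that of the genes beside it. Within 1 Mb of Mtor, 30 tested genes had a mean of at least 5 CPM. Compared with the mean of the other 3 animals on the log2 scale (CPM + 1), their median difference was 1.31 for RP1 and -1.08 for RP2, beside 1.46 and -1.23 for Mtor itself. All 30 neighbors were above that mean in RP1 and 0 were in RP2. The stretch ran from Zfp984, 0.721 Mb before the midpoint of Mtor, to H6pd, 1.49 Mb after it, with limits set after the values were seen. It held 37 tested genes beside Mtor, of which RP1 was the highest animal in 36 and RP2 the lowest in 32. Over all 11485 genes of at least 5 CPM, RP1 was the highest animal in 26.8% and RP2 the lowest in 24.2%.

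Beyond the far end the genes did not follow. From Eno1, 1.74 Mb after Mtor, to 6 Mb after it, 31 genes had a median of -0.34 in RP1 and 0.17 in RP2 on the same scale, and RP1 was the highest animal in 0 of them. On the near side, 6 genes between 6 and 1 Mb before Mtor had a median of 0.13 in RP1 and -0.10 in RP2, and RP1 was above the mean of the others in 5 and the highest animal in 3. One of these, Pdpn, had 29.2, 2.53, 0.794 and 3.76 CPM. The nearest genes of this level were Tnfrsf1b at 3.63 Mb, with 44.4, 49.5, 45.4 and 32.8 CPM, and Vps13d at 3.78 Mb, with 499, 479, 404 and 440 CPM. Tardbp, 0.117 Mb after Mtor, had 855, 144, 289 and 341 CPM, and Pik3cd, which encodes another catalytic PI3K subunit and lies 1.17 Mb after Mtor, had 31.1, 5.82, 16.1 and 16.9 CPM. Both had the order of the animals seen for Mtor (these neighbors were named after their values were seen). The number of DNA copies was not measured.

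**Figure D3:**
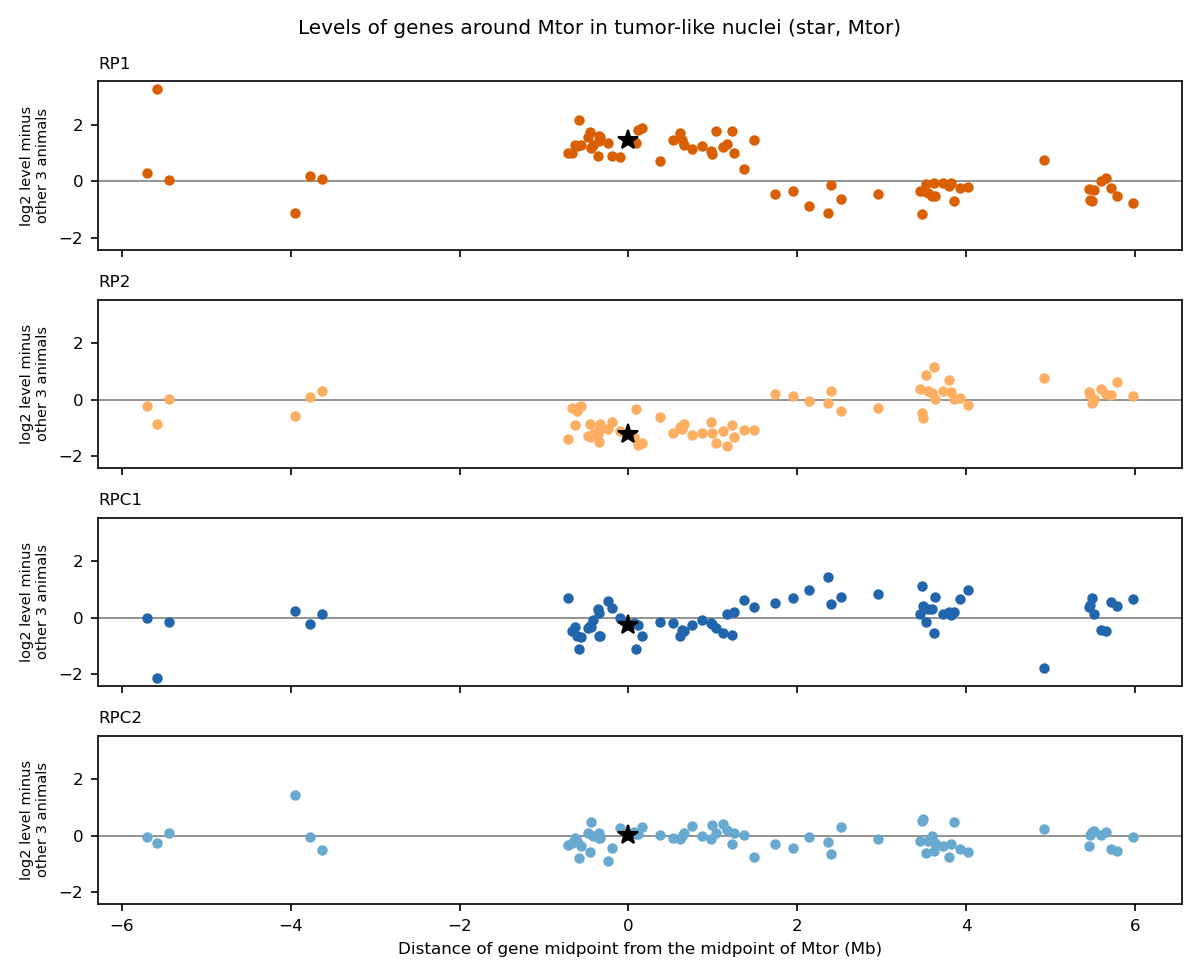
Log2 level (CPM + 1) of each gene in tumor-like nuclei minus the mean of the other 3 animals, against the distance from Mtor in Mb, for genes with a mean of at least 5 CPM. The stretch around the star that marks Mtor is raised in RP1 and lowered in RP2, while the 31 genes from Eno1 (1.74 Mb) onwards have a median of -0.34 in RP1.

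Around the other 7 genes, the median log2 fold change of the neighbors lay between -0.35 (Rictor, with 2 neighbors) and 0.14 (Pik3r1, with 4). Within 1 Mb of Akt1, 21 neighbors had a median log2 fold change of -0.25 against -0.59 for Akt1, and 14 had the same sign. Within 1 Mb of Akt2, 36 neighbors had a median of -0.10 against -0.51 for Akt2, and 22 had the same sign. Around Tsc2, 49 neighbors had a median of -0.17, close to the -0.22 of Tsc2 itself, and around Tsc1, 13 neighbors had a median of 0.06 against 0.33.

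Within RP1, tumor-like nuclei fell into 5 clusters of at least 200 nuclei, which differed in Mtor and Pik3r1. The 8 genes and all pathway lists were left out of the genes used for clustering. Mtor was at 508 and 500.03 CPM in the clusters of 2254 and 940 nuclei, led among others by Pdzrn3, Eya1 and Negr1, and at 282.5, 276 and 264 CPM in the clusters of 2081, 1256 and 278 nuclei. Pik3r1 was at 11.5 and 23.0 CPM in the first pair and at 71.9, 55.9 and 60.4 CPM in the others. The 2 clusters with more Mtor were thus the ones with less Pik3r1. Plod1 and Ctnnbip1, which lie in the stretch around Mtor, were among the leading genes of the cluster of 2254 nuclei, and Miip of that of 940 nuclei. Leading genes were ranked over all genes, so this does not show that the clustering had used genes of that stretch. It may have done so, and the Mtor values are therefore not taken as an independent observation.

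Summed over clusters, the 3194 RP1 nuclei of the Mtor-high clusters had 0.251 times the Pik3r1 level of the 3615 nuclei of the other 3 clusters and 1.80 times the Mtor level. The other 6 members had ratios between 0.887 (Tsc1) and 1.14 (Tsc2). Of 13333 genes with at least 20 counts in both sets of nuclei, 187 (1.40%) had a ratio as low as that of Pik3r1. The 33 genes within 3 Mb of Pik3r1 with a mean of at least 5 CPM had a median ratio of 0.997, and the lowest of them was Gtf2h2 with 0.796. No neighbor of Pik3r1 was thus as low. Of the neighbors of Mtor, Exosc10 had 372 and 345 CPM in the Mtor-high clusters and 186 to 215 CPM in the other 3. Tardbp had 1126 and 1151 CPM against 486 to 695 CPM. Miip was not higher in both, with 23.9 and 140 CPM against 16.1 to 76.5 CPM (named after their values were seen). How many neighbors of Mtor were higher in both clusters was not counted. The clustering may have used genes of that stretch, so these values are not an independent observation, and their cause was not tested. Among RP1 nuclei with at least 1000 transcripts, 51 of 1905 nuclei (2.68%) of the cluster of 2254 held a Pik3r1 transcript and 539 of 1927 (28.0%) of the cluster of 2081, with median depths of 2128 and 3431 transcripts. In the other 3 animals Pik3r1 differed between clusters by at most 1.29-fold. Because the clusters were formed from the same nuclei, these differences are given without a test.

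The promoter of Pik3r1 is shown because its transcript differed within a single animal, and that of Tsc1 because it had the highest log2 fold change of the members, which did not pass the test. The windows are the 250 bases before the canonical GENCODE start, taken from GRCm39 and written 5' to 3' on the gene's strand, at chr13:101904726-101904975 (minus) and chr2:28530811-28531060 (plus). Neither window overlaps an annotated exon. Capitals mark a match to a motif.
Pik3r1: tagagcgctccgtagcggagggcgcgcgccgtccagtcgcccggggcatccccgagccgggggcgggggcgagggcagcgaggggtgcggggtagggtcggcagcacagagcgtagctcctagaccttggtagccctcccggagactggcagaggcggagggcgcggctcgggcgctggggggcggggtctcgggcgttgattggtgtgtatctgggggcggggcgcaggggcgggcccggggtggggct
Tsc1: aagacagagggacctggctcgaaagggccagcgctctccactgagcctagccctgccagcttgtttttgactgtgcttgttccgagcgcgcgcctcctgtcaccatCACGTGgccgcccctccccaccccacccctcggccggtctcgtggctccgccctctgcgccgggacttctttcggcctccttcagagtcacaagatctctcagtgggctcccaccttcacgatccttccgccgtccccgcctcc
On both strands, the letters searched were GTAAACA (FOXO), GGCGGGAA or GGCGCGAA (E2F), CACGTG (E-box) and TGACGTCA (CRE), and none of these contains another. Tsc1 held CACGTG starting 144 bases before the start, and the Pik3r1 window, with 76.4% G and C, held none of them. Of the 6 windows not shown, that of Akt1 held 1 FOXO match and that of Rictor 1 E2F match. Both of these windows overlap annotated exons, with 8 exon records for Akt1 and 1 for Rictor, counted over all transcripts. The Akt1 window, at chr12:112641249-112641498, lies within the annotated span of the gene. Of 21770 protein-coding genes, 2.72% had a FOXO match, 2.71% an E2F match, 6.26% an E-box and 1.69% a CRE in such a window. A match is a description of the letters only.

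In the other animals the 8 genes differed less between clusters than Pik3r1 and Mtor did in RP1. In RPC2, Tsc2 was at 116 CPM in the cluster of 2394 nuclei, led by Dmc1 and Tex14, and at 68.2 to 76.6 CPM in the other 3, while Mtor ranged from 138 to 206.5 CPM. Rictor was at 249 CPM in an RPC2 cluster of 255 nuclei and at 182 to 193 CPM in the others. The cluster of 580 RPC1 nuclei led by the neuronal genes Grik2, Lrrtm4 and Erbb4 had 86.2 CPM of Pik3r1 against 66.98 and 69.6 CPM in the other RPC1 clusters, and 64.8 CPM of Akt2 against 76.7 and 80.5. Akt1 ran from 28.7 to 41.8 CPM over the 7 RPC clusters and from 28.9 to 56.6 CPM over the 7 RP clusters, where the lowest RP value came from 278 nuclei.

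**Figure D4:**
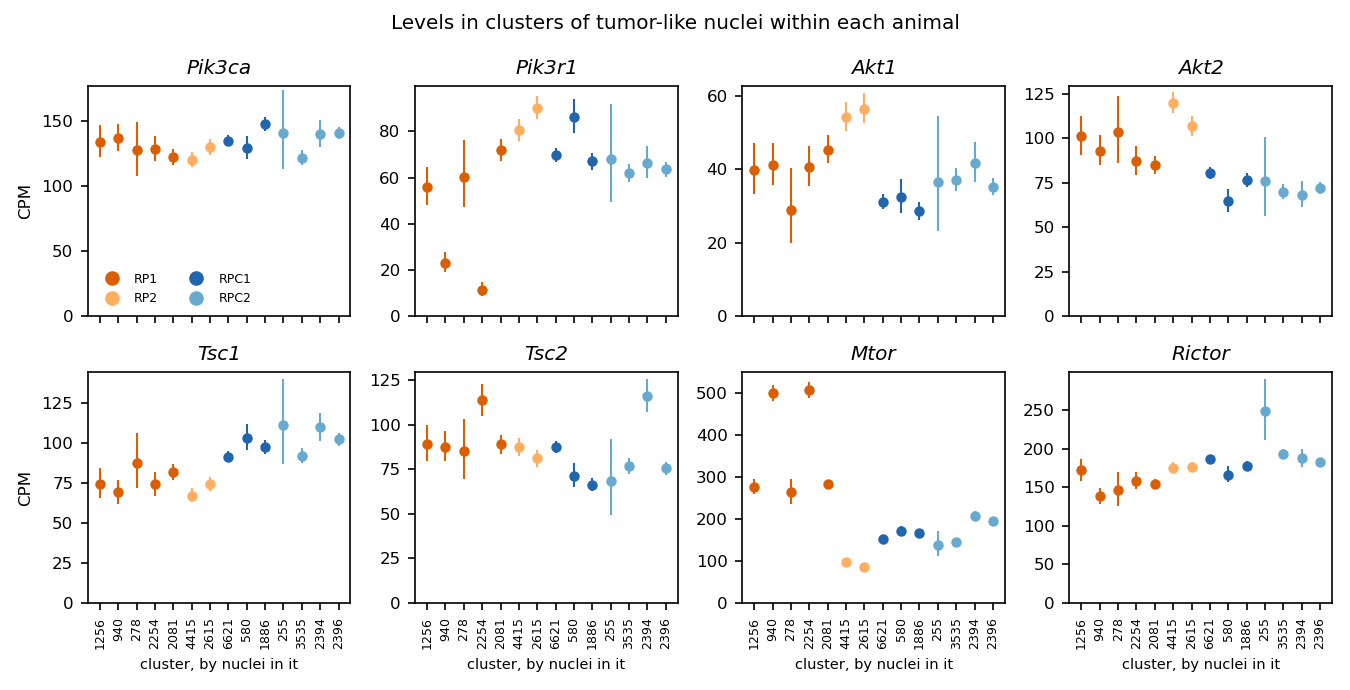
CPM of the 8 genes in each cluster of at least 200 tumor-like nuclei, within each animal, with exact 95% Poisson intervals that cover counting error only and cluster sizes on the x axis. The RP1 clusters of 2254 and 940 nuclei stand apart in Mtor (508 and 500.03 CPM) and Pik3r1 (11.5 and 23.0 CPM).

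Endothelial-like nuclei (86 to 169 per animal) and macrophage or monocyte-like nuclei (154 to 315) were the non-tumor classes with at least 50 nuclei in each animal. The median neuroendocrine marker was at 68.6 to 82.7% (endothelial-like) and 53.4 to 73.8% (macrophage-like) of the level seen in tumor nuclei, so that neuroendocrine transcripts were also counted in these classes, and their part in the values below was not tested. Pik3r1 was the member that differed most from tumor-like nuclei. It was at 87.4, 129, 158 and 107 CPM in the endothelial-like and at 164, 126, 158 and 153 CPM in the macrophage-like nuclei, against 48.7 to 85.3 CPM in tumor-like nuclei on the same scale (without TMM). Every animal had more Pik3r1 in both classes than any animal had in tumor-like nuclei, by a median of 1.74-fold and 2.33-fold. The lowest endothelial-like value, 87.4 CPM in RP1, was close to the highest tumor-like value, 85.3 CPM, and counting error was not taken into account. Of 4495 and 6817 genes with at least 20 counts in every sum, 12.6% and 17.2% were likewise above all tumor-like values.

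Tsc2 was the only member below, and only in macrophage-like nuclei, with 60.8 to 76.2 CPM against 77.8 to 92.9, a pattern that 10% of genes had. The remaining members overlapped. Compared within each animal, Pik3r1 and Akt1 were higher in endothelial-like than in tumor-like nuclei of 4 of 4 animals and no member was lower in all, against 23.1% and 31.5% of genes. In macrophage-like nuclei Pik3r1 and Tsc1 were higher and Akt2 and Tsc2 lower in 4 of 4 animals, against 29.4% and 34.1% of genes. The median ratio was 1.09 for Akt1 and for Tsc1 and 0.808 for Akt2 in these comparisons. Mtor kept the order of the animals in both classes, with 268, 93.1, 126 and 155 CPM in endothelial-like and 251, 77.4, 133 and 185 CPM in macrophage-like nuclei.

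The remaining classes had too few nuclei per animal and are given as sums over animals, with exact Poisson intervals for counting error and without the 47 mesothelial-like and the unnamed nuclei. Of the 1054 club-like nuclei, 732 came from RPC1. Pik3r1 was highest in fibroblast-like nuclei with 239 CPM (212 to 267, 177 nuclei), followed by smooth muscle or pericyte-like nuclei with 192 (165 to 221) and macrophage-like nuclei with 147 (138 to 158), and was lowest in tumor-like nuclei with 67.2 (65.9 to 68.5). The intervals of fibroblast-like and pericyte-like nuclei overlapped. Those of B cell-like (66.7 to 97.3) and ciliated-like nuclei (64.0 to 101) overlapped that of tumor-like nuclei. Rictor was highest in alveolar type 2-like with 250.5 CPM (224 to 280) and alveolar type 1-like nuclei with 239 (215 to 265), above the 177.5 (175 to 180) of tumor-like nuclei. Club-like nuclei also lay above the tumor-like level of Rictor, with 217 CPM (210 to 225). Pik3ca was also highest in alveolar type 2-like nuclei, with 199.9 CPM (176 to 226) against 133.2 (131 to 135) in tumor-like nuclei. Tsc2 was lowest in ciliated-like nuclei with 41.5 CPM (29.7 to 56.5, 77 nuclei), against 82.4 (81.0 to 83.9) in tumor-like nuclei. Akt1 ran from 24.1 CPM in alveolar type 1-like to 47.5 in T or NK cell-like nuclei, whose interval of 32.9 to 66.4 included the tumor-like value of 38.8.

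**Figure D5:**
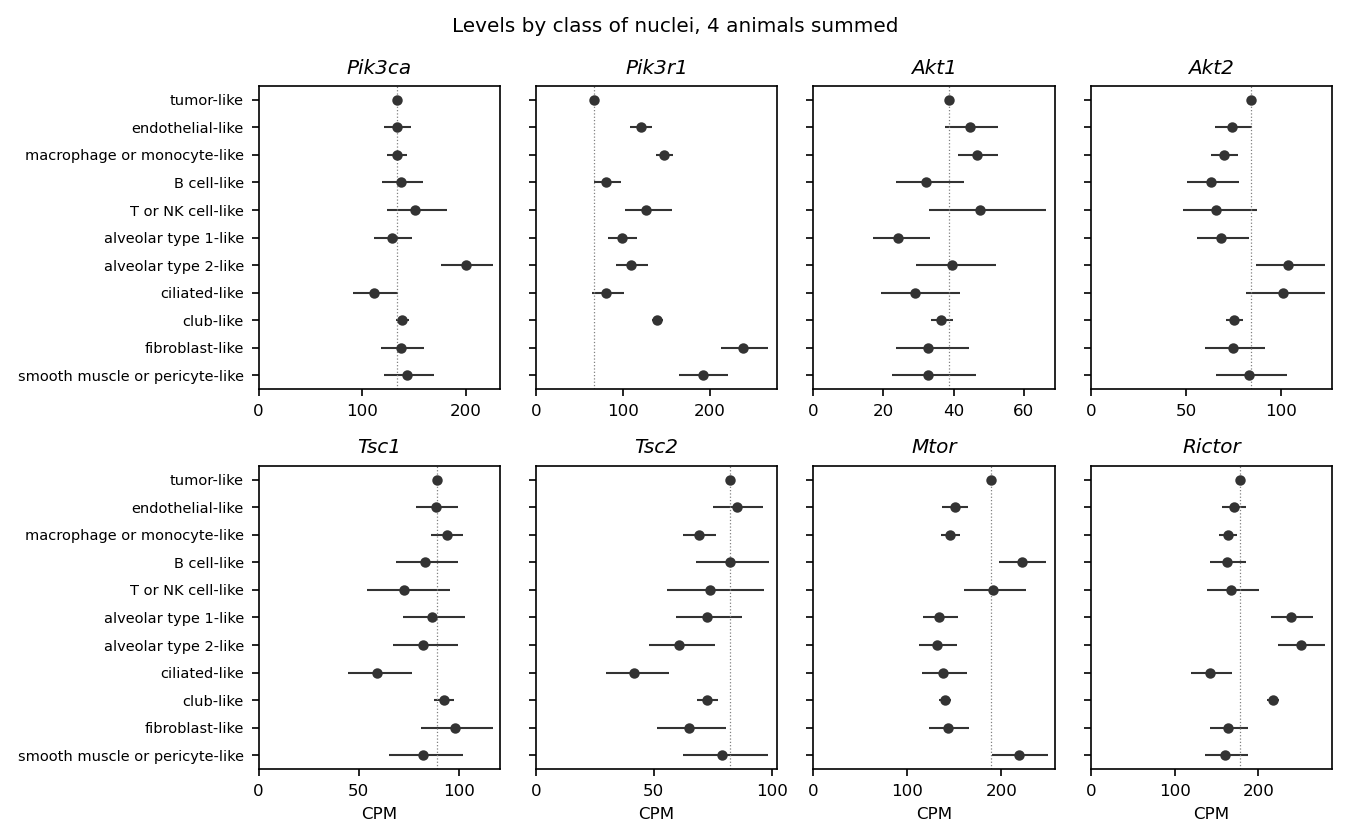
CPM of the 8 genes by class of nuclei, counts of 4 animals summed, with exact 95% Poisson intervals for counting error and a dotted line at the tumor-like level. Mesothelial-like and unnamed nuclei are not drawn. Pik3r1 lies above the tumor-like level of 67.2 CPM in the mesenchymal and macrophage-like classes, among others, and Rictor in both alveolar classes and the club-like class.

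The genotype difference was also fitted in the 2 larger non-tumor classes. In endothelial-like nuclei Akt1 had 44.6 and 66.8 CPM in RP and 32.3 and 38.4 CPM in RPC tumors, a log2 fold change of -0.74 ± 0.32 (SE) with an unadjusted p of 0.046 and an adjusted p of 0.42. In macrophage-like nuclei Akt1 had 47.4, 62.5, 38.2 and 36.7 CPM in the same order, a log2 fold change of -0.60 ± 0.24 (SE) with an adjusted p of 0.45. Akt2 had 82.8, 102, 33.7 and 77.7 CPM in endothelial-like and 78.7, 85.7, 54.5 and 63.8 CPM in macrophage-like nuclei, with log2 fold changes of -0.77 ± 0.36 and -0.51 ± 0.21 (SE) and adjusted p of 0.45 and 0.45. Both genes were therefore lower in each RPC animal than in each RP animal in all 3 classes, without passing the adjusted threshold. Class by class, 25.6% (tumor-like), 18.4% (endothelial-like) and 19.9% (macrophage-like) of genes were likewise lower. The share of genes lower in all 3 classes was not counted. The classes come from the same animals, so they are not independent repeats. With each animal left out in turn, the endothelial-like log2 fold change of Akt2 ran from -1.50 to -0.35. Without RPC2 it passed the threshold at -1.50, with an adjusted p of 0.024, in a fit that called 252 genes against 9 with all animals, and without RP1, RP2 or RPC1 the adjusted p was 0.80, 0.69 and 0.74.

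Of the other members, Tsc2 did not overlap between genotypes in endothelial-like nuclei (lower), and Tsc1 and Rictor did not in macrophage-like nuclei (higher). In endothelial-like nuclei 3 members were thus apart, all lower, against 45.8% of 9052 genes (27.4% higher and 18.4% lower). In macrophage-like nuclei 4 members were apart, 2 higher and 2 lower, against 44.2% of 11556 genes (24.3% higher and 19.9% lower). An unadjusted p under 0.05 was reached by Akt1 alone in the former, against 11.7% of genes, and by Akt1 and Akt2 in the latter, against 11% of genes. edgeR called 9 genes (0.0994%) and 1 gene (0.00865%) in the 2 classes, no member among them, with 1055 and 1267 genes at an unadjusted p under 0.05. The difference of the genotype effect between tumor-like and endothelial-like nuclei ranged over the members from -0.23 (Pik3r1) to 0.25 (Akt2) and that between tumor-like and macrophage-like nuclei from -0.21 (Mtor) to 0.14 (Tsc1) in log2. None of these passed the test, with an adjusted p of 1 for each member, while 58 of 18917 genes (0.307%) and 56 of 19206 genes (0.292%) did. An unadjusted p under 0.05 was reached by 3.77% and 4.62% of genes and by no member.

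Since the animals differed in depth, each tumor-like nucleus was thinned to 1000 transcripts, which left out 803 and 784 nuclei of RP1 and RP2 and 156 and 462 of RPC1 and RPC2. A Mtor transcript was then found in 28.9% and 8.35% of nuclei in RP tumors and in 14.5% and 16.4% in RPC tumors, so the order of the animals was that of the CPM. An Akt1 transcript was found in 4.00% (3.54 to 4.51), 5.12% (4.61 to 5.68), 2.90% (2.57 to 3.26) and 3.47% (3.10 to 3.88) of nuclei in the same order (Wilson 95% intervals, counting error only). An Akt2 transcript was found in 8.87%, 10.1%, 7.41% and 6.97%, and a Tsc1 transcript in 7.77%, 6.54%, 9.15% and 9.56%. The mean difference between RPC and RP was -1.38 percentage points for Akt1, -2.28 for Akt2, 2.199 for Tsc1 and -3.24 for Mtor. With each animal left out in turn, it ran from -1.93 to -0.82 points for Akt1, from -2.89 to -1.68 for Akt2, from 1.58 to 2.82 for Tsc1 and from -13.5 to 7.06 for Mtor. The exact two-sided permutation test gave p = 0.33 for Akt1, Akt2 and Tsc1, which is the smallest it can give with 2 animals per genotype, and p = 1 for Mtor, and the p adjusted over the 8 genes was 0.44 and 1.

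Before thinning, Akt1 was found in 14.3, 17.5, 14.1 and 14.95% of the same nuclei, with median depths of 2590.0, 2505.0, 3372.0 and 2960.0 transcripts. In thinned endothelial-like and macrophage-like nuclei Akt1 was found in 0 to 6.84% and 2.90 to 6.38% (the 0 is 0 of 83 RPC1 nuclei, with a Wilson upper bound of 4.42%), against 2.90 to 5.12% in tumor-like nuclei. Pik3r1 was more frequent in macrophage-like nuclei, 13.1 to 25.9%, than in tumor-like nuclei, 4.30 to 7.84%, in all animals.

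Tumor-like nuclei were also split within each animal by the share of transcripts from 20 mitosis genes, and the highest 10% (708 to 923 nuclei) was set beside the rest. Pik3ca was higher in the mitosis-rich nuclei of 4 of 4 animals, by 0.20 to 0.29 in log2, and so were Mtor, by 0.07 to 0.37, and Tsc1, by 0.02 to 0.40. Tsc2 was lower in 4 of 4 animals, with log2 ratios of -0.89 to -0.22, as were Akt1, with -0.38 to -0.18, and Rictor, with -0.18 to -0.01. Akt2 and Pik3r1 were higher in 2 animals and lower in 2. Of 8951 genes with at least 20 counts in every sum, 25.9% were higher and 29.3% lower in 4 of 4 animals, beside 3 of 8 members in each direction. The mitosis-rich nuclei were deeper, with medians of 2503 to 3964 transcripts against 2238 to 3239, and 297 to 377 nuclei per animal lay within 10% of the boundary. Of the 20 mitosis genes themselves, 19 were higher and 1 lower in RPC, beside 9933 higher and 10248 lower of all 20181 genes. Of the 20, 10 did not overlap between genotypes, all of them higher, against 50.3% of all genes (24.7% higher and 25.6% lower). Mki67 was highest at a log2 fold change of 0.78 and Kif11 lowest at -0.18 (named after their values were seen). edgeR called none of the 20.

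Of 102 further genes of the pathway, in 10 lists by role, 101 were in the files and 97 were tested. Among them 42 were higher and 55 lower in RPC, with a median log2 fold change of -0.05 against -0.01 over all genes. An unadjusted p under 0.05 was reached by 4 higher and 15 lower genes, against 7.31% and 7.74% of all genes, and 20 higher and 31 lower genes did not overlap between genotypes, against 24.7% and 25.6%. edgeR called none of the 97. DESeq2 called 8 of them, beside 3.91% of all genes (2.09% higher and 1.81% lower), and all 8 were lower in RPC: Inppl1, Akt1s1, Gsk3a, Mlst8, Rragd, Flcn, Eif4ebp1 and Sgk3. Of these, Inppl1, Akt1s1, Mlst8, Rragd and Sgk3 were the lowest of their lists, and Gsk3a, Flcn and Eif4ebp1 were named after their values were seen.

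Upstream of AKT, the 13 other PI3K subunit genes ran from Pik3r3, a regulatory subunit gene, with a log2 fold change of 0.34, to Pik3r6 with -1.12, which was counted at 1.05 CPM or less in every animal. Among the receptor adaptors, Irs2 was highest with 0.57 and 54.7, 65.6, 78.8 and 99.8 CPM, and its relative Irs1 was lowest with -0.48 and 47.1, 39.3, 30.7 and 31.3 CPM. These insulin receptor substrates did not overlap between genotypes and had opposite directions, with adjusted p of 0.30 and 0.31. Of the lipid phosphatases, Inpp5f was highest with 0.37. Inppl1, which encodes SHIP2, was lowest with -0.97 ± 0.13 (SE) and an adjusted p of 0.27 in edgeR and of 0.0022 in DESeq2. It was counted at 221.0 and 215.7 CPM in RP and at 110.4 and 112.6 CPM in RPC tumors, so the animals of a genotype lay close together.

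Among the AKT regulators, Ppp2r5c, a phosphatase subunit gene, had 0.33 and Pdpk1, which encodes the activating kinase PDK1, had -0.12. Of the AKT substrates, Tbc1d1 had 0.10, and Akt1s1, which encodes PRAS40, an inhibitor of the raptor complex, had -1.69 ± 0.24 (SE). Akt1s1 was counted at 11.6 and 13.1 CPM in RP and 3.81 and 3.83 CPM in RPC, with an adjusted p of 0.27 in edgeR and of 6.7e-06 in DESeq2. Beside TSC1 and TSC2, the third subunit gene Tbc1d7 had 0.43 and Rheb -0.22. Of the other mTOR complex subunits, Prr5l had 1.44, with values of 1.09, 3.69, 1.95 and 11.02 CPM and a range of -0.28 to 2.58 when animals were left out, and Mlst8, shared by both complexes, had -1.05 ± 0.25 (SE), with 11.2 and 9.58 CPM in RP and 4.58 and 5.43 CPM in RPC. Raptor itself (Rptor) had -0.09 with 304, 271, 265 and 276 CPM and was named after its values were seen.

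Among 27 nutrient sensing genes tested, 13 were higher and 14 lower. Rraga was the highest with 0.68, and Rragd, which encodes a GTPase of the same family, was the lowest with -1.61 ± 0.33 (SE) and 6.44, 6.91, 1.73 and 2.63 CPM. Among the stress inputs, Prkaa2 had 0.13 and Stk11, the gene of the kinase LKB1, had -0.91 ± 0.23 (SE) with 78.8, 82.0, 34.0 and 51.5 CPM and an adjusted p of 0.28. Among the substrates of the mTOR complexes, Lpin1 had 0.57 and Sgk3 had -1.45 ± 0.36 (SE) with 19.2, 10.4, 5.74 and 5.07 CPM.

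Across the 12 sums of 4 animals and 3 classes, the gene most like each member among 4305 genes was named by Pearson's r of log2 CPM, as a description. The sums share animals, and r carries no p. Mtor was followed by Tardbp (r = 0.994) and Exosc10 (r = 0.988), which lie 0.117 and 0.0673 Mb from it. Akt1 was followed by Cdk8 (0.939) and the small RNA gene Scarna2 (0.928), Akt2 by Hnrnpul1 (0.913), which lies 1.88 Mb away on the same chromosome, and Megf9 (0.909). Pik3r1 was followed by Adgrl3 (0.928) and Nek7 (0.926), Tsc1 by Lonp2 (0.927) and Cep350 (0.907), Tsc2 by Pspc1 (0.894) and Mb21d2 (0.876), Rictor by Ncl (0.929) and Uggt1 (0.918), and Pik3ca by Zfp438 (0.882) and Nae1 (0.862). The r of Mtor was the highest of the 8.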

How the data were processed

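Nuclei of fresh-frozen lung tumors were barcoded by split-pool indexing (Parse Evercode WT Mega), and each of the 7 libraries pooled all 4 animals. The authors aligned the reads to GRCm39 (Ensembl 110) with the PARSE pipeline and deposited 1 matrix of raw transcript counts per animal, not normalized, with tables of genes and nuclei, of which 8 of 12 columns were not used here. No nucleus had under 300 counts. The thresholds of the study (at most 10% mitochondrial counts and 12000 genes per nucleus) were applied again. The limit on genes was the only step against doublets, and an alternative left out nuclei above 4 times the median depth of their animal.

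From log-transformed, depth-scaled counts, 2000 variable genes without the members and pathway lists, 20 principal components and a graph of 20 neighbors were clustered with leidenalg 0.10.2 at resolution 0.4. Clusters were named from 13 marker lists, tumor-like ones by the lack of a non-tumor score above 0.5, and because they are rebuilt, classes may differ from those of the study. Non-tumor classes required a marker score of 1 or more and 3 or more detected markers. The unnamed nuclei (349 to 627 per animal) were mostly shallow and rich in Rn18s-rs5.

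Counts were summed per animal and class and tested with the two-sided quasi-likelihood test of edgeR 4.0.16 (R 4.3.3, TMM, filterByExpr, no covariate) over all genes, and called at 0.05 after Benjamini-Hochberg adjustment. The standard error was calculated back from the F statistic. DESeq2 1.42.0, which the study used, was an alternative. The difference of effects between classes was the interaction term with the animal as a block. The fit was run on simulated data with much less spread between animals than the biological coefficient of variation of 0.284 estimated here. That run checks the code and does not show how many true changes the fit finds in these data. Levels without replicate sums have exact Poisson intervals and shares have Wilson intervals (95%), for counting error only. Gene positions and exon lengths are from GENCODE M39 (56323 of 56941 identifiers matched). Motifs were counted in 250 bases before the canonical start.

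The 8 members, the pathway lists and the tests were chosen with earlier results of these data known, and none is independent evidence. The genes named were the 8 members, Casp8 and the 2 genes most like each member. To these were added the tested genes with the highest and the lowest log2 fold change in each pathway list. Others are marked. Some single genes are not reported here. Nothing in the labels says how the animals were paired, and 2 animals per genotype limit every p.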

Additional observations from a re-analysis of the deposited data

How the results depend on the processing

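The same replicate numbers gave r = -0.053 within both pairs and 0.053 when crossed. With 2 animals per genotype these are 1 value by construction, so they do not settle whether the samples were paired. The fit with a replicate block called 0 genes, with Mtor at -0.17. The count of genes called in tumor-like nuclei was 0 in edgeR, 655 with DESeq2 and 70 without a filter on low counts, and 0 to 26 without 1 animal (26 without RPC2). Members with an unadjusted p under 0.05 numbered 2, 1 with DESeq2, and 1 to 3 without 1 animal. Members not overlapping numbered 5, and 5 to 8 without 1 animal (8 without RP2). With fewer animals, genotypes are less likely to overlap by construction, so the 8 is not read as a stronger separation. For the settings without 1 animal, neither of these counts of members is set beside a share of all genes here. The Pik3r1 log2 fold change turned to 0.0053 without the filter and to 0.031 over all kept nuclei, and ran from -0.39 to 0.39 without 1 animal, as Mtor did from -1.17 to 0.85. Without thinning, share differences were 5.02 points for Pik3r1, 3.22 for Tsc2 and 4.57 for Mtor, and at 2000 transcripts 0.997 for Pik3r1. Without 1 animal they ran from -1.78 to 1.77 for Pik3r1 and from -13.5 to 7.06 for Mtor. Genes called in endothelial-like nuclei were 266 without the filter and 12 to 385 without 1 animal (385 without RPC1), and in macrophage-like nuclei 389 and 0 to 36 (36 without RP2). The difference of effects called 40 to 100 genes for endothelial-like and 37 to 233 for macrophage-like nuclei (233 without RPC2). Without 1 animal, endothelial-like log2 fold changes crossed 0 for Pik3r1 (-0.085 to 0.47), Mtor (-1.03 to 0.53) and Pik3ca (-0.22 to 0.35), and macrophage-like ones for Mtor (-0.75 to 0.93), Pik3r1 (-0.18 to 0.19), Pik3ca (-0.013 to 0.10) and Tsc2 (-0.37 to 0.044). In fits without 1 animal the lone sample is assumed to vary like the other genotype. Except where the construction shows it (fewer animals, more genes tested, unequal depth), the cause was not tested. The alternative without the cluster led by neuronal genes was chosen after seeing the data.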
